A study of Mus musculus with 10 samples.

Results

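Transcripts for 7 subunits of the GABA-A receptor were looked for in the hippocampus of mice aged 30 months: *Gabra2*, *Gabra3*, *Gabra4*, *Gabrb1*, *Gabrb2*, *Gabrg1* and *Gabrd*. The members were taken as all probe sets, groups of short probes for 1 transcript, that the platform's annotation assigns to a single one of these genes. This gave 6 probe sets for 6 genes, among 12488 probe sets on the array and 8251 genes with a probe set of their own, and *Gabra4* was dropped because no probe set is assigned to it. Hippocampal RNA came from 5 calorie restricted and 5 control mice, all male C57BL/6, at the same age, with 1 mouse per Affymetrix array. The restricted diet was long-term; the labels do not state its degree or the age at which it began.

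GABA-A receptors are pentameric chloride channels opened by GABA, the main inhibitory transmitter of the adult brain. Alpha and beta subunits together form the GABA binding site, and a gamma subunit beside an alpha subunit forms the site for benzodiazepines and places the receptor at synapses. Receptors with a delta subunit lie mostly outside synapses and carry a slow, tonic inhibition, in the hippocampus chiefly in granule cells of the dentate gyrus. Which subunit is built in sets where the receptor sits and which drugs act on it.

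*Gabrg1* and *Gabra3* were the subunits whose signals were lower in every calorie restricted mouse than in every control mouse, while *Gabrb1* had overlapping signals in both diets. Of all 12422 probe sets that are not array controls, 7.27% were likewise lower in every calorie restricted mouse. The 250 bases before the first listed transcript start of *Gabrg1*, *Gabra3* and *Gabrb1* were picked for display by this difference in overlap. They are from RefSeq on GRCm38.p6, read 5′ to 3′ on the gene's strand. Capitals mark any of 5 short motifs that were searched on both strands. The letters searched were TATAAA for the box that places the start, GGGCGG for the box bound by Sp factors, TGACGTCA for the cyclic AMP response element, CACGTG for the element called the E box, and lastly CCAAT for the box bound by nuclear factor Y. None of these letter strings contains another.
Gabrg1, chr5:70842618-70842867, minus strand: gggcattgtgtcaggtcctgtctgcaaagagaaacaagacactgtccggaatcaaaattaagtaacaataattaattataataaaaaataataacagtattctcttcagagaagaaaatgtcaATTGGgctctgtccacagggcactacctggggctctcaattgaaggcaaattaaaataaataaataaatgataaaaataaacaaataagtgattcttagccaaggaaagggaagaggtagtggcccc
Gabra3, chrX:72656920-72657169, minus strand: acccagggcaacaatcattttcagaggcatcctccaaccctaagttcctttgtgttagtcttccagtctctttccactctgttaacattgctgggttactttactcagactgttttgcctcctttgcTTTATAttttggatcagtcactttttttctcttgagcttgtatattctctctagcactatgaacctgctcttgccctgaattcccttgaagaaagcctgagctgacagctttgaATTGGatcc
Gabrb1, chr5:71657671-71657920, plus strand: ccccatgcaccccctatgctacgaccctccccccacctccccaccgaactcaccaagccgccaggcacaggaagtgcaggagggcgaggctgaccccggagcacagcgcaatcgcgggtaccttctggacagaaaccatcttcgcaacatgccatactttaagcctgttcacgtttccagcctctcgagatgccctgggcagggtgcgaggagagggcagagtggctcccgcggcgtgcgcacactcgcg

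The *Gabrg1* window had a G and C content of 35.6% and 1 match to the nuclear factor Y box. The *Gabra3* window had 42.4%, with 1 match to the start box and 1 to the nuclear factor Y box. All of these matches are read on the opposite strand, so the capitals show the reverse complement. The *Gabrb1* window had 64.4% and no match to the 5 motifs. Motif matches were also found before subunits whose signals overlapped between diets. The first *Gabra2* window had 70%, with 1 match to the Sp box and 1 to the nuclear factor Y box. The first *Gabrb2* window had 58.8%, with 1 match to the start box and 1 to the Sp box. Over 32851 windows of 250 bases in the same RefSeq table, the median G and C content was 52.4%. The start box was in 12.4% of them, the nuclear factor Y box in 33.8%, the Sp box in 32.7%, the E box in 6.02% and the cyclic AMP response element in 1.55%. *Gabrg1*, *Gabra2*, *Gabra4* and *Gabrb1* all lie on chromosome 5, where the first listed starts of *Gabrb1* and *Gabra4* are 387 bases apart on opposite strands. *Gabrb2* lies on chromosome 11, *Gabrd* on 4 and *Gabra3* on X.

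The arrays of the diets differed in measures that are not about GABA. Signals from the 3′ and the 5′ part of *Gapdh* and of *Actb* drift apart when RNA is broken or copied in part. The mean log2 difference of 3′ over 5′ was 2.88 ± 2.57 in calorie restricted animals, against 0.16 ± 0.24 in control animals (SD over 5 arrays per diet; exact two-sided permutation p = 0.00794, the smallest that 252 splits allow, also after adjustment over 2 measures). The *Gapdh* ratio was 82.7 and 160.7 in calorie restricted replicates 3 and 5, 1.24 to 1.98 in the other calorie restricted replicates and 0.815 to 1.53 in control mice. Bacterial spike-in probe sets averaged 13.05 ± 0.47 in calorie restricted animals, against 11.12 ± 0.56 in control animals, on the log2 scale (SD over 5 arrays per diet; exact two-sided permutation p = 0.00794). The part of these differences in the subunit results was not tested beyond the values given without those arrays and with these measures as covariates.

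The diet comparison was run in limma on log2 signals of 7453 probe sets whose mean log2 signal was at least 6.85, a signal of 115. A log2 change is calorie restricted minus control, relative to the median change of the probe sets in the fit, which was -0.15. The limma test is of the change before this median is taken off. The threshold was an adjusted p (Benjamini-Hochberg) under 0.05. *Gabra2*, *Gabrb1*, *Gabrb2* and *Gabrg1* passed the signal filter and *Gabra3* and *Gabrd* did not. Those below it are given from a fit of all 12422 non-control probe sets, whose median change was -0.22. In the fit of 7453 probe sets, 7.74% were called lower and 4.11% higher in calorie restricted mice. Under quantile normalization of the arrays the split of calls was 279 lower and 322 higher, against 577 lower and 306 higher as deposited. With 1 array per mouse, the spread behind each p-value holds differences between mice and between arrays together.

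*Gabrg1* encodes gamma 1, a gamma subunit that gives receptors a weaker response to diazepam than the common gamma 2. Its signal was 56.0, 129.8, 66.4, 86.9 and 46.9 in calorie restricted replicates 1 to 5, against 202, 152, 187, 254 and 172 in control replicates 1 to 5. The highest calorie restricted array lay below the lowest control array. *Gabrg1* fell, with a relative log2 change of -1.25 ± 0.35 (SE, n = 5 per diet; 95% interval -2.001 to -0.490; limma adjusted p = 0.0272), or 2.37-fold lower. It was the only subunit called among the probe sets tested, against the 7.74% called lower overall. Its log2 signal averaged 6.17 ± 0.58 under calorie restriction and 7.57 ± 0.28 in control animals (SD over 5 arrays per diet), so it passed the filter on signal, with a mean of 6.87 over all arrays, through the control arrays.

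The direction of *Gabrg1* held in all 20 alternatives run, but the call did not. The limma adjusted p was 0.0505 to 0.0747 without any 1 of control replicates 1 to 5 and 0.0550 without calorie restricted replicate 3. It was 0.0654 without calorie restricted replicates 3 and 5 together, where the change was -1.05. Under quantile normalization it was 0.0762, with the replicate number as a block 0.0605, with the 3′ to 5′ measure as a covariate 0.188 (change -0.92) and with spike-in signal added 0.735 (change -0.77).

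*Gabra3* encodes alpha 3, an alpha subunit of benzodiazepine-sensitive receptors that is best known from brainstem and thalamic neurons and is scarcer in the hippocampus. Its signal was 70.1, 42.5, 5.95, 13.7 and 2.94 in calorie restricted replicates 1 to 5, against 77.2, 107, 171, 303 and 142 in control replicates 1 to 5. The groups did not overlap, although the highest calorie restricted and the lowest control array were close. Calorie restricted arrays lay wholly below control arrays in 7.27% of all 12422 non-control probe sets. In the fit of all of these, *Gabra3* changed by -3.05 ± 0.80 (SE; 95% interval -4.77 to -1.33; limma adjusted p = 0.0337), where 4.27% were called lower. It lay below the filter, at percentile 22.9 of mean signal, so it is not counted as a call here, and detection calls were not analysed.

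The summed signal of 4 thalamic markers was 1488 to 2349 in calorie restricted mice, against 2387 to 3466 in control animals. Of the 3 tested, 1 was called lower, beside 7.74% of all tested probe sets. The part of these markers in the *Gabra3* values was not tested. Within the calorie restricted mice, *Gabra3* was dimmest in replicates 5, 3 and 4, the replicates with the highest 3′ to 5′ measure. Without replicates 3 and 5 its change was -1.90 (limma adjusted p = 0.0753), and with the 3′ to 5′ measure as a covariate -1.24 (adjusted p = 0.294). With spike-in signal added it was -0.80 (adjusted p = 0.870). With 16 added to each signal before the log it was -1.98 (adjusted p = 0.0225). The adjusted p was 0.0554 to 0.0894 without any 1 of control replicates 1 to 5, 0.0757 without calorie restricted replicate 3 and 0.0623 without calorie restricted replicate 4. It was 0.0573 without the variance trend and 0.0607 with the replicate block.

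**Figure D1:**
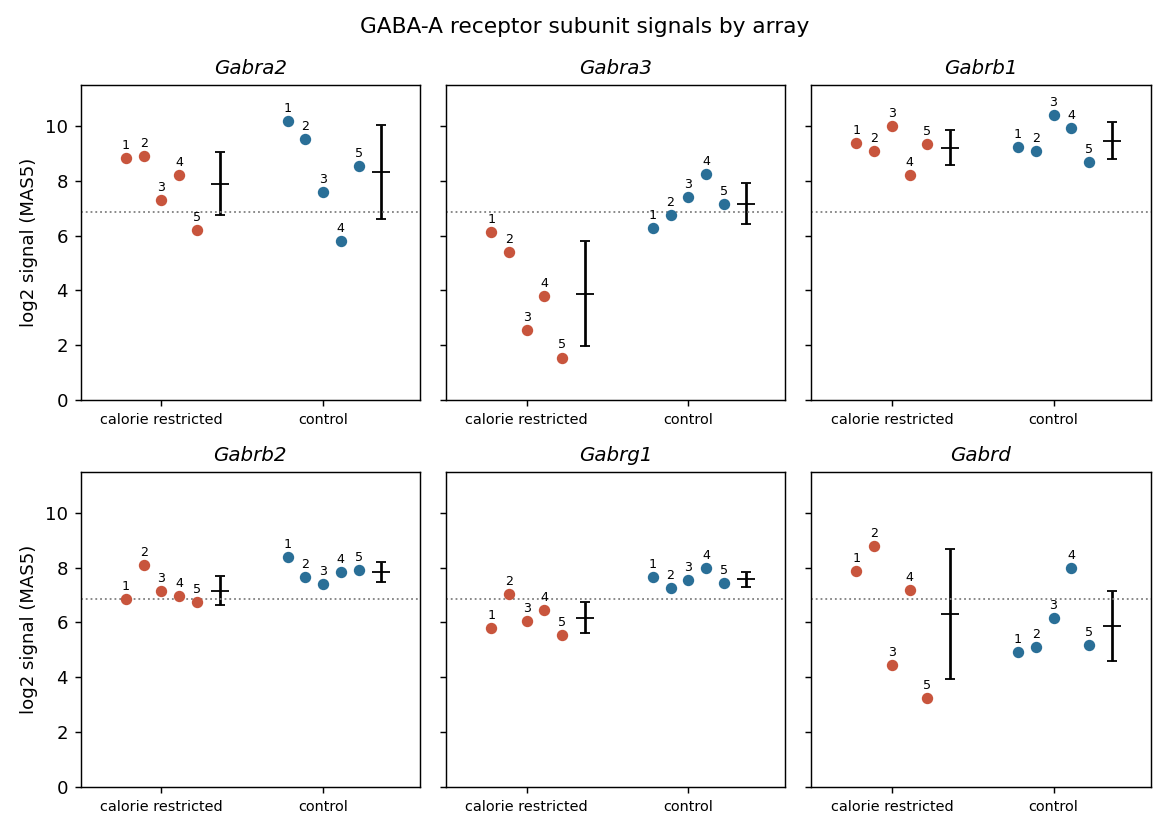
Log2 MAS5 signal of each of 6 subunit probe sets on each array (points, numbered by replicate), calorie restricted to the left of control, with mean and SD at the right of each group (n = 5) and the filter level of 6.85 as a dotted line. For Gabrg1 and Gabra3 every calorie restricted point lies below every control point; for the other subunits the diets overlap, and Gabrd and Gabra3 spread most widely in calorie restricted mice.

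*Gabra2*, alpha 2, is the alpha subunit enriched at the axon initial segment of hippocampal pyramidal cells and takes part in the calming action of benzodiazepines. Its signal was 461, 483, 159, 299.9 and 73.9 in calorie restricted replicates 1 to 5, against 1164, 732, 194, 55.9 and 370.4 in control replicates 1 to 5. Both the highest and the lowest of the 10 arrays were control arrays. The relative log2 change was -0.27 ± 0.76 (SE; limma adjusted p = 0.727), and its 95% interval of -1.93 to 1.38 leaves room for changes of over 1 either way. The sign turned without control replicate 1 (0.19) or 2 (0.02), without calorie restricted replicate 5 (0.12), without calorie restricted replicates 3 and 5 (0.44) and with the 3′ to 5′ measure as a covariate (0.72). With spike-in signal added it was -3.02 (adjusted p = 0.331). No direction can be given for *Gabra2*.

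The beta subunits are needed to build the channel and carry the sites for several general anaesthetics. *Gabrb1*, beta 1, had signals of 667, 544, 1015, 299 and 657 in calorie restricted replicates 1 to 5, against 597, 540.4, 1346, 977 and 415 in control replicates 1 to 5. The diets overlapped, with the lowest array calorie restricted and the highest control, and the relative log2 change was -0.10 ± 0.37 (SE; 95% interval -0.90 to 0.69; limma adjusted p = 0.649). The sign turned without control replicate 3 (0.13) or 4 (0.02), without calorie restricted replicate 4 (0.14) and with both covariates (0.17).

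*Gabrb2*, beta 2, is the usual partner of alpha 1 and gamma 2 in the most widespread receptor of the brain. Its signal was 117, 273, 141, 125 and 107 in calorie restricted replicates 1 to 5, against 337, 202, 169, 229 and 240.0 in control replicates 1 to 5. Of the calorie restricted arrays, 4 lay below the lowest control array and replicate 2 lay among the control arrays. The relative log2 change was -0.53 ± 0.31 (SE; 95% interval -1.20 to 0.15; limma adjusted p = 0.157, unadjusted p = 0.0491). Both p-values are of the change before the median is taken off, which was -0.68. Without calorie restricted replicate 2 the relative change was -0.75 and *Gabrb2* passed (limma adjusted p = 0.0439). In the other 19 alternatives the relative change was below 0 and *Gabrb2* did not pass, with -0.27 under quantile normalization, -0.35 with the 3′ to 5′ measure as a covariate and -1.43 with spike-in signal added.

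*Gabrd*, delta, the subunit of the extrasynaptic receptors of dentate granule cells, had signals of 236, 440.2, 21.7, 144 and 9.43 in calorie restricted replicates 1 to 5, against 30.4, 33.9, 71.9, 255 and 35.9 in control replicates 1 to 5. Calorie restricted replicate 2 exceeded every control array, replicates 1 and 4 exceeded every control array but replicate 4, and replicates 3 and 5 lay below every control array. Over all arrays the relative log2 change was 0.66 ± 0.99 (SE; 95% interval -1.48 to 2.80; limma adjusted p = 0.817 in the fit without a filter). Without calorie restricted replicates 3 and 5 the change was 2.23 (adjusted p = 0.105), and with the 3′ to 5′ measure as a covariate 3.09 (adjusted p = 0.0531). With spike-in signal added it was 4.56 (adjusted p = 0.338). The SD of its log2 signal was 2.36 under calorie restriction and 1.29 in control animals, and its mean signal was at percentile 30.2 of the non-control probe sets.

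**Figure D2:**
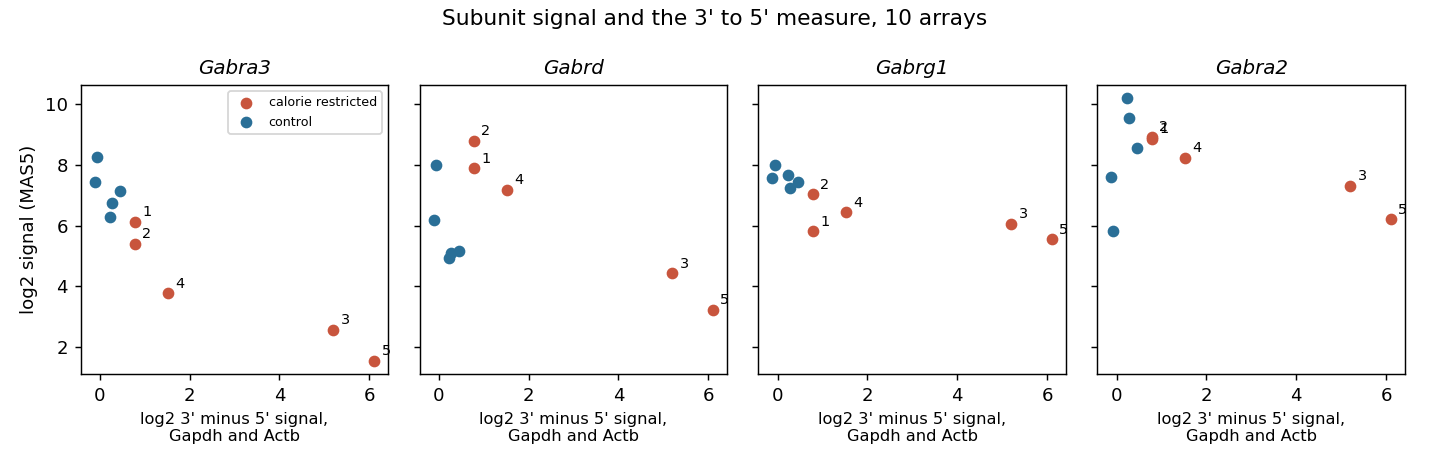
Log2 MAS5 signal of 4 subunits against the mean log2 difference between 3′ and 5′ control probe sets of Gapdh and Actb, 1 point per array, calorie restricted (red, numbered by replicate) and control (blue). Calorie restricted replicates 3 and 5, at the right of each panel, are the 2 lowest calorie restricted arrays for Gabra3, Gabrd and Gabra2, and for Gabrg1 the lowest are replicates 5 and 1.

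Calorie restricted replicates 3 and 5 were the 2 lowest of their diet for *Gabra2*, *Gabra3* and *Gabrd*, or 3 of 6 members, and for 19.0% of all 12422 non-control probe sets. The members thus did not share 1 pattern. *Gabrg1* and *Gabra3* lay lower in all calorie restricted arrays, *Gabrb2* in 4, *Gabrd* in 2, *Gabrb1* in 1 and *Gabra2* in 0, each against the lowest control array. All calorie restricted arrays lay below the control arrays in 7.27% of the 12422 non-control probe sets. Such shares were not computed for the smaller counts. Among the subunits past the filter the median relative log2 change was -0.40, beside 0 over all 7453 probe sets by construction and -0.26 in the dimmest 1490 of them, which include *Gabrg1* and *Gabrb2*. In whole tissue, fewer cells of a type and less RNA per cell cannot be told apart.

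**Figure D3:**
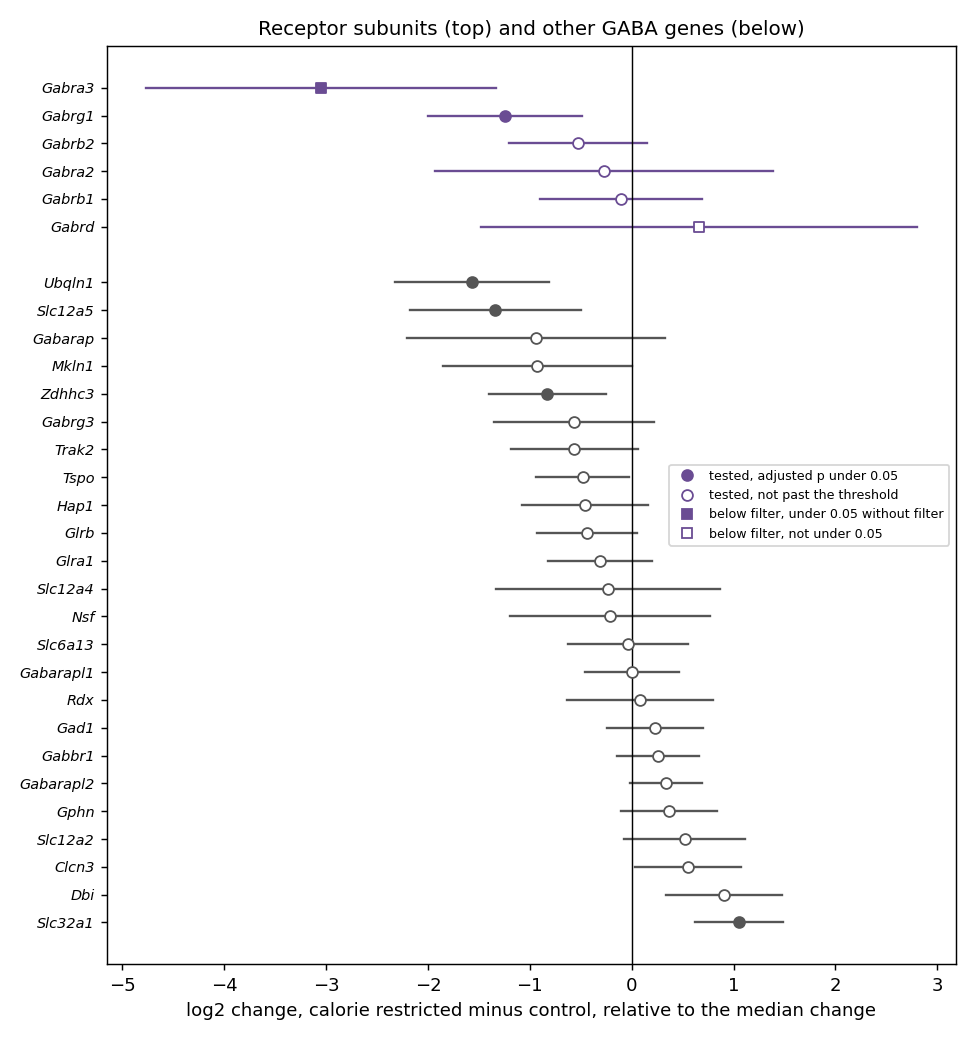
Relative log2 change, calorie restricted minus control, with its 95% interval from limma (n = 5 per diet) for the 6 receptor subunits at the top and for the 24 tested genes of the other GABA lists below. Filled symbols have an adjusted p under 0.05 and squares lie below the filter on signal; Gabrg1 and Gabra3 are filled among the subunits, and Ubqln1, Slc12a5, Zdhhc3 and Slc32a1 among the other genes.

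Genes around the receptor were taken from 6 lists of 57 genes, of which 31 had a probe set and 24 passed the filter. Of the 24, 1 rose, 3 fell and 20 did not pass, with a median relative log2 change of -0.22. The shares called over all tested probe sets were 4.11% higher and 7.74% lower. The other receptor subunits outside the 7 had 1 tested gene, *Gabrg3*, gamma 3, at -0.56 ± 0.36 (SE; limma adjusted p = 0.191). *Gabrr2*, rho 2, a subunit of the retinal GABA-C type receptors, and *Gabra6*, alpha 6, of cerebellar granule cells, lay below the filter. *Gabrr2* had 19.6, 156, 69.9, 95.9 and 58.2 in calorie restricted replicates 1 to 5, against 21.5, 26.3, 27.5, 16.6 and 16.3 in control replicates, with a change of 1.86 (limma adjusted p = 0.0890 without a filter). *Gabra6* had -0.40 (adjusted p = 0.572).

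On the side of GABA release, *Slc32a1*, the transporter that loads GABA into synaptic vesicles, rose. Its signal was 4152, 2808, 4511, 4084 and 5833 in calorie restricted replicates 1 to 5, against 2768, 2059.9, 1932, 2371 and 2088 in control replicates 1 to 5, without overlap. The share of probe sets with all calorie restricted arrays above the control arrays was not computed. The relative log2 change was 1.06 ± 0.20 (SE; limma adjusted p = 0.0191). The call was lost without control replicate 2 (adjusted p = 0.0545) or 3 (0.0529), with the 3′ to 5′ measure as a covariate (change 0.68, adjusted p = 0.0985) and with both covariates (0.75, adjusted p = 0.580). *Gad2*, a GABA-synthesizing enzyme, lay below the filter with 4.65 to 176 in calorie restricted mice, against 129 to 314 in control animals (change -2.23, limma adjusted p = 0.0955 without a filter). Its lowest signals, 4.65 and 11.4, were in calorie restricted replicates 5 and 3. *Gad1*, the other GABA-synthesizing enzyme, passed the filter and had 0.23 ± 0.22 (SE, limma adjusted p = 0.823). *Slc6a12*, a betaine and GABA transporter, lay below the filter at -0.71 (limma adjusted p = 0.366 without a filter). *Gabbr1*, a subunit of the G protein-coupled GABA-B receptor, had 0.26 ± 0.18 (SE; adjusted p = 0.718).

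Of 13 tested genes of the inhibitory postsynapse, receptor traffic and receptor ligands, 0 rose, 2 fell and 11 did not pass. *Ubqln1*, ubiquilin 1, binds GABA-A receptor subunits and slows their degradation. It had 1495, 1186, 902, 894 and 299 in calorie restricted replicates 1 to 5, against 2552, 2509, 3012, 3099 and 2797 in control replicates 1 to 5, and fell by 1.57 ± 0.35 on the log2 scale (SE; limma adjusted p = 0.0147). Another probe set of *Ubqln1* had -1.16 (adjusted p = 0.00523). *Ubqln1* passed without each single array, with 16 added before the log and under quantile normalization, and missed the threshold with the 3′ to 5′ measure as a covariate (-0.86, adjusted p = 0.0710) and with both covariates (-0.73, adjusted p = 0.578). *Zdhhc3*, a palmitoyl transferase that acts on gamma 2, had 355, 375, 216, 347 and 152 in calorie restricted replicates 1 to 5, against 466, 610.1, 491, 512 and 632 in control replicates 1 to 5.

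*Zdhhc3* fell by 0.83 ± 0.27 on the log2 scale (SE; limma adjusted p = 0.0361). Its adjusted p was 0.0604 to 0.0843 without any 1 of control replicates 1 to 5, 0.0814 without calorie restricted replicate 3, 0.0561 without calorie restricted replicates 3 and 5 (change -0.48) and 0.299 with the 3′ to 5′ measure as a covariate (change -0.31). It was 0.716 with both covariates (change -0.35), 0.0684 under quantile normalization and 0.0632 with the replicate block. *Tspo*, a mitochondrial protein that binds some benzodiazepines and is high in reactive microglia, had -0.48 ± 0.21 (SE; adjusted p = 0.0677).

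Among the chloride transporters, which set the gradient that the receptor uses, 4 were tested and *Slc12a5* fell. *Slc12a5* encodes KCC2, the potassium chloride cotransporter that keeps chloride low in mature neurons. Its signal was 129.8, 108, 101, 35.0 and 105 in calorie restricted replicates 1 to 5, against 212, 171, 353, 304 and 232 in control replicates 1 to 5, without overlap. Calorie restricted arrays lay wholly below control arrays in 7.27% of the 12422 non-control probe sets. The relative log2 change was -1.34 ± 0.39 (SE; limma adjusted p = 0.0314). Its log2 signal averaged 6.45 ± 0.75 under calorie restriction and 7.94 ± 0.42 in control animals (SD over 5 arrays per diet), so it too passed the filter of 6.85 through the control arrays. It was as large without calorie restricted replicates 3 and 5, at -1.54 (adjusted p = 0.0411), and -1.50 with the 3′ to 5′ measure as a covariate, where it did not pass (adjusted p = 0.0870), nor with both covariates (-1.75, adjusted p = 0.486). The adjusted p was 0.0555 to 0.0825 without any 1 of control replicates 1 to 5, 0.0553 without calorie restricted replicate 3, 0.0716 under quantile normalization and 0.0632 with the replicate block.

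Of the other chloride genes, *Clcn3*, a chloride and proton exchanger of vesicles, had 0.55 (limma adjusted p = 0.271). *Slc12a7*, another potassium chloride cotransporter, lay below the filter at -0.83 (limma adjusted p = 0.154 without a filter). The glycine receptor, the other inhibitory chloride channel of this family, had *Glrb*, its beta subunit, at -0.44 ± 0.23 (SE; limma adjusted p = 0.0997) and *Glra1* at -0.31 (adjusted p = 0.199).

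Cell type markers moved beside these genes, and their part in the results was not tested. Each count of called markers stands beside 4.11% called higher and 7.74% called lower over all tested probe sets. The summed signal of 9 GABAergic interneuron markers was 35173 to 40821 in calorie restricted mice, against 17322 to 27882 in control animals, and of the 7 tested, *Slc32a1*, *Pvalb* and *Npy* rose and 0 fell. The brightest in this sum, *Cck*, had 8826 to 14787 in calorie restricted mice, against 3584 to 9838 in control animals. It did not pass (change 1.05, limma adjusted p = 0.0613). Nor did *Sst* (0.85, adjusted p = 0.108), *Gad1* (0.23, adjusted p = 0.823) or *Lhx6* (-0.08, adjusted p = 0.688). Of 3 tested thalamic markers *Tcf7l2* fell and 0 rose. For dentate granule cells, 5 markers summed to 1564 to 3958 in calorie restricted mice, against 2221 to 2787 in control animals, and 0 of 4 tested passed. For pyramidal neurons, 6 markers summed to 3199 to 7006 in calorie restricted mice, against 4822 to 8948 in control animals, and *Neurod6* fell. The pan-neuronal sum was 36769 to 46980 in calorie restricted mice, against 32738 to 44427 in control animals, with *Syt1* and *Nefl* lower and 0 of 6 higher. Its brightest gene, *Snap25*, had 16043 to 24966.5 in calorie restricted mice, against 10318 to 18843 in control animals. Of 4 choroid plexus and ependymal markers, *Folr1* and *Foxj1* fell. The summed signal of the 4 was 912 to 15353 in calorie restricted mice, against 3242 to 11575 in control animals. *Ttr* alone had 273 to 13888 in calorie restricted mice, against 2055 to 9016 in control animals. For astrocytes, *Aqp4* fell among 4 markers summing to 5969 to 20513 in calorie restricted mice, against 6744 to 10431 in control animals. The highest of these sums held a *Gja1* signal of 17520 in calorie restricted replicate 5. For microglia, *Cx3cr1* fell among 5 markers summing to 2327 to 5445 in calorie restricted mice, against 4352 to 6694 in control animals. Of 4 oligodendrocyte, 4 cerebellar and 1 striatal marker, 0 passed in limma. No marker was at 0. The markers below the filter were *Prox1* of granule cells, *Rora* of the thalamus and, among the interneuron markers, *Vip* (-0.07, limma adjusted p = 0.766 without a filter) and *Gad2*, whose change of -2.23 is opposite in sign to those of *Slc32a1*, *Pvalb* and *Npy*. The log2 signal of *Gad2* averaged 5.18 under calorie restriction and 7.63 in control animals. It was thus left out of the interneuron markers tested through its low calorie restricted arrays.

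Genes most like each tested subunit across arrays were sought by the Pearson correlation of log2 signals over the 10 arrays after the diet means were taken off. These are the highest correlations among tested probe sets with 1 symbol, with the subunits themselves left out and 1 probe set kept per gene. The values are a description only, from arrays that also share the differences in RNA measures above. For *Gabrg1* they were *Mkrn2* (r = 0.95) and *Gpc3* (0.92), for *Gabrb2* they were *Rps29* (0.98) and *Kcna3* (0.94), for *Gabra2* they were *Hebp1* (0.95) and *Ift20* (0.93), and for *Gabrb1* they were *Klf17* (0.99) and *Cds2* (0.92). The 8 genes named are all different.

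**Figure D4:**
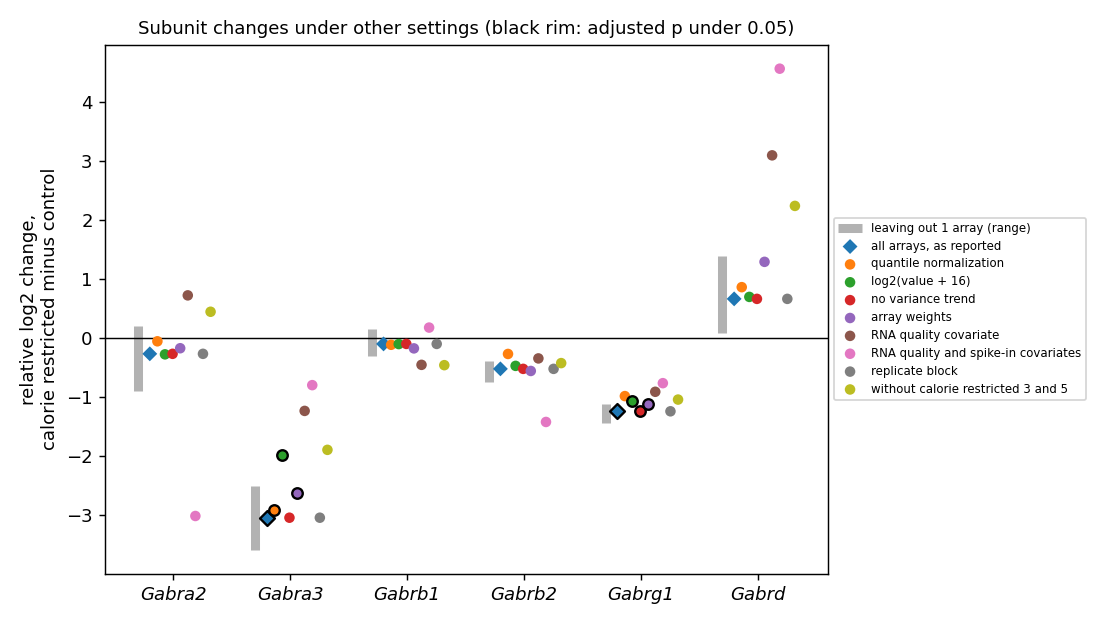
Relative log2 change, calorie restricted minus control, of each of 6 subunits under the analysis as reported (diamond), 8 other settings (points) and the range when 1 array is left out (grey bar); a black rim marks an adjusted p under 0.05. Gabrg1, Gabra3 and Gabrb2 stay below 0 and Gabrd above 0 in all settings shown, while Gabra2 and Gabrb1 lie on both sides of 0.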

How the data were processed

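Hippocampal RNA of 10 mice was hybridized to Affymetrix arrays, 1 mouse per array, in 2 diet groups of 5. The deposited values are intensities on a linear scale that the authors computed with MAS5, as named in the submitters' processing notes, which give no version. In the deposited intensities, the mean without the lowest and highest 2% was 500 on every array, so overall brightness had been equalized. Signals under 1 (41 of 124880) were set to 1, and log2 was taken. The 66 control probe sets were left out of tests. Probe sets with a mean log2 signal under the 40th percentile of the other 12422 were filtered out. The platform annotation gave 1 symbol for 10833 of those probe sets, several for 396 (not named) and none for 1193, and 10817 were matched to RefSeq. Each subunit had 1 probe set. For genes of the other lists, the probe set with the highest mean was used.

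Diets were compared with limma 3.58.1 (lmFit, eBayes with a variance trend) in R 4.3.3, with Benjamini-Hochberg adjustment over all probe sets in the fit. Array measures were compared with exact permutation tests in scipy 1.17.1. The fit was tested on simulated data with independent noise for each probe set and no differences between arrays. That test cannot show how the array differences between diets bear on the calls. The members, gene lists, markers and settings were chosen with earlier results of these data known. Genes outside the subunits are named if they passed or had one of the 3 smallest p-values of their list, as are listed markers that passed and the 2 genes most like each tested subunit. The interneuron markers *Gad1*, *Sst*, *Cck* and *Lhx6*, and *Snap25*, *Ttr* and *Gja1* of other marker lists, did not pass. They are named too, chosen after their values were seen. Alternatives changed the normalization, filter, offset, variance model, array weights, covariates, threshold, probe sets per gene and arrays used, with the probe sets tested kept as they were unless the filter changed. Same-numbered mice of both diets deviated together with correlations of -0.08 to 0.17, so the numbers were not taken as pairs. Batches and scan dates were not analysed here. The number of arrays limits the precision, and MAS5 signals near the floor are imprecise on a log scale.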

Additional observations from a re-analysis of the deposited data

Results flagged for a closer look

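Of 24 sets of 5 arrays examined, being each diet for the 6 subunits, the 4 other genes that passed and 2 array measures, 1 held an array far from the rest on the log2 scale. *Slc12a5* had a signal of 35.0 in calorie restricted replicate 4, where the gap to the nearest of the other 4 arrays was 0.808 of the whole range of log2 signals, against a critical value of 0.710. On the linear signals the same gap was 0.695 of the range, under that value. Chance flags about 1 in 20 such sets. Without that array the relative log2 change of *Slc12a5* was -1.005, still past the threshold (limma adjusted p = 0.0410).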

How the results depend on the processing

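Counts past the threshold moved with the setting. Over all tested probe sets 883 passed, with 253 to 1251 when 1 array was left out, 333 with the 3′ to 5′ measure as a covariate, 540 with the replicate block, 1627 at an adjusted p under 0.10 and 0 in limma with both covariates (907 at an unadjusted p under 0.05), a fit in which the covariates account for 0.85 (R2) of the diet. Of the subunits 1 passed, with 0 to 2 when 1 array was left out. The count was 0 under quantile normalization, with the 3′ to 5′ covariate, with both covariates, with the replicate block, without calorie restricted replicates 3 and 5 and at the 60th percentile filter, where *Gabrb1* alone is tested. In these limma fits 1 subunit had an unadjusted p under 0.05, and 0 did at the 60th percentile. That subunit was *Gabrg1*, except with both covariates. There it was *Gabra2*, with a change of -3.02 (limma adjusted p = 0.331), and *Gabrg1* had an adjusted p of 0.735. The count past the threshold was 2 without a filter, *Gabrg1* and *Gabra3*, where all 6 are tested. Of the other GABA genes 4 passed, with 1 to 6 when 1 array was left out, 0 with either set of covariates (8 and 4 at an unadjusted p under 0.05 in limma, the second with spike-in signal added) and 2 with the replicate block. Among relative log2 changes, *Gabra2* turned to 0.72 with the 3′ to 5′ covariate and 0.44 without calorie restricted replicates 3 and 5, and ran from -0.90 to 0.19 when 1 array was left out. *Gabrb1* turned to 0.17 with both covariates and ran from -0.30 to 0.14. *Gabrg1*, *Gabrb2*, *Gabra3*, *Gabrd*, *Slc32a1*, *Ubqln1*, *Zdhhc3* and *Slc12a5* kept their direction in every alternative run. Apart from what the alternatives' own construction shows, the cause of these moves was not tested. The diet difference in the 3′ to 5′ measure was 1.92 to 3.25 when 1 array was left out. The labels do not state whether the replicate numbers pair the mice, and the block is given as a setting only. Signals below about 115 were close to the floor of what was tested and limit *Gabra3*, *Gabrd* and the calorie restricted side of *Gabrg1* and *Slc12a5*.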
